A study of Homo sapiens with 6 samples.

Results

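The endoplasmic reticulum (ER) folds, glycosylates and exports the proteins a cell secretes or places in its membranes, and 36 genes of that machinery and of its stress response are described here. The genes were listed by name and role rather than by a threshold on their values, though with earlier results of these data known: ER chaperones and lectins, protein disulfide isomerases, J-domain cochaperones, factors of ER-associated degradation (ERAD), the sensors and transcription factors of the unfolded protein response (UPR), and 3 genes of the translocon and of the coat that leads cargo out of the ER. All 36 were among the 37887 genes of the count table, and 35 of them were among the 15355 genes with enough counts to be tested. RNA came from MDA-MB-436, an established cell line of triple-negative breast cancer with a BRCA1 mutation, which carried a stable, tetracycline-inducible vector for a short hairpin RNA (shRNA) against MUC1, a transmembrane mucin. Both groups carried this vector. The 3 control libraries came from cells given 0.1% DMSO as vehicle, and the 3 shMUC1 libraries from cells given 500 ng/ml doxycycline, which switches the hairpin on. The controls are called control shRNA in the sample titles but inducible MUC1 cells with vehicle in the treatment labels and design text, and the latter was followed. No doxycycline-treated cells without the MUC1 hairpin were analysed here, so effects of doxycycline and of silencing cannot be told apart, and the labels give no length of treatment.

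In the ER lumen, HSP70- and HSP90-type chaperones hold unfolded chains, the lectins calnexin and calreticulin retain glycoproteins until they fold, and disulfide isomerases form and reshuffle cysteine bonds. Chains that fail are handed to ERAD, which moves them back to the cytosol for destruction by the proteasome. When unfolded protein accumulates, the membrane sensors IRE1 (ERN1), ATF6 and PERK (EIF2AK3) signal to the nucleus, where spliced XBP1 and cleaved ATF6 raise transcription of chaperone and ERAD genes. HSPA5, also called BiP, is the classical read-out of that response. Secretory and glycoprotein-rich cells rely heavily on this system.

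The genes did not move as a block when shMUC1 was compared with control. The most abundant chaperones were mostly lower in shMUC1 libraries. The ERAD factors EDEM2, EDEM3 and OS9 and the UPR transcription factors ATF6 and XBP1 were higher. The ERAD factor SEL1L and the UPR sensor ERN1 were lower. HSPA5 stood at 624 ± 10.7 CPM (counts per 1000000 counts) in control and 627 ± 7.58 CPM in shMUC1 libraries (SD, n = 3 each). At an adjusted p under 0.05, 12 of the 35 tested genes fell (34.3%, beside 23.6% of all tested genes) and 6 rose (17.1%, beside 25.2%). The other 17 did not pass the test. Fold changes were small: the extremes were DNAJC10, 1.55-fold lower, and EDEM2, 1.42-fold higher. No member changed more than 2-fold at an adjusted p under 0.05 in edgeR, nor at an unadjusted p under 0.05 in edgeR, DESeq2 or limma-voom. Of all tested genes, 2.21% rose and 3.74% fell by more than 2-fold.

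Promoters of several members hold the ER stress element (ERSE), the DNA sequence to which ATF6 binds together with NF-Y. The search used CCAAT, 9 bases of any kind and CCACG for ERSE, ATTGG, 1 base and CCACG for the related ERSE-II, and TGACGTGG for the core of the UPR element, on both strands. The RefSeq window ran from 250 bases before to 50 after each gene's start on GRCh38.p14, and 32 members had a window. A match to such an element does not by itself place a gene under the UPR. The following 30-base stretches are shown as matches, whatever the counts of the gene here. They are written 5′ to 3′ along the element, with the fixed bases in capitals and with the genome strand.
HSPA5, ERSE, chr9:125241385-125241414, minus strand: cttcaCCAATcggcggcctCCACGacgggg
HSP90B1, ERSE, chr12:103930211-103930240, plus strand: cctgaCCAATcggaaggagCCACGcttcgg
CALR, ERSE, chr19:12938379-12938408, minus strand: caccgaCCAATgatggtcgaCCACGcgtgg
CANX, ERSE, chr5:179698773-179698802, plus strand: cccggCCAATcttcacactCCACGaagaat
PDIA6, ERSE, chr2:10812847-10812876, minus strand: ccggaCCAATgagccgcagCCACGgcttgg
XBP1, ERSE, chr22:28800597-28800626, minus strand: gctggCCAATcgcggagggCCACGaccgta
HYOU1, ERSE-II, chr11:119057264-119057293, plus strand: gcgcgtactcATTGGaCCACGtcccaggcc
SDF2L1, ERSE-II, chr22:21642105-21642134, minus strand: gagggttttgATTGGtCCACGcttccgagg
HERPUD1, ERSE-II, chr16:56932016-56932045, plus strand: cggacgccgATTGGgCCACGttgggagagt
DNAJC10, UPR element core, chr2:182716121-182716150, minus strand: taggtttaggtTGACGTGGcggtgtgcgcg

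CRELD2 also held an ERSE, HSP90B1 a further ERSE, and HYOU1 a further ERSE-II that overlapped a UPR element core. The stretches of HSP90B1, CANX, PDIA6 and DNAJC10 lie before the RefSeq start but inside the longer genes annotated by GENCODE 29. ERSE or ERSE-II was thus found in 10 of 32 member windows (31.3%), against 44 of 27305 genes with a window (0.161%) and 29 of 11187 tested genes with one (0.259%). The UPR element core was in 2 member windows (6.25%), those of DNAJC10 and HYOU1, and in 0.927% of all windows. A match is a run of letters and not a shown binding site, and these genes are known for such elements.

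Library totals ran from 18678307 to 27825546 counts. MUC1, the target of the hairpin, had 93, 84 and 102 counts in control and 72, 51 and 34 in shMUC1 libraries. It fell from 3.88 ± 0.401 to 2.14 ± 0.412 CPM (SD, n = 3 each). Its log2 fold change was -0.84 (SE 0.214, adjusted p = 0.00119). The libraries of each group did not overlap, and the knockdown was partial on a gene with low counts, 48 exon bases of which are shared with AL713999.1. The hormone receptor genes ESR1 and PGR had at most 12 and 4 counts in a library, and ERBB2 was at 44.7 CPM in control and 39.0 CPM in shMUC1 libraries. The mesenchymal genes VIM and ZEB1 went from 718 to 417 CPM and from 35.1 to 17.9 CPM. Of the plasma cell genes, JCHAIN was at 0 in all 6 libraries and MZB1 had at most 4 counts. Of the blood cell genes, CD3E was at 0 in all libraries while PTPRC went from 0.242 to 0.743 CPM and CD14 from 2.99 to 6.28. Of 6 epithelial markers, CLDN3 and CLDN4 fell (log2 fold changes of -1.31 and -0.70), and KRT19, GRHL2, RAB25 and ESRP1 had at most 4 counts in a library. Mitochondrially encoded genes took 3.74% ± 0.415 of counts in control and 5.10% ± 0.139 in shMUC1 libraries (SD, n = 3 each). The part of these shifts in the results below was not tested. In RNA of whole cultures, fewer cells expressing a gene and less RNA per cell cannot be told apart.

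**Figure D1:**
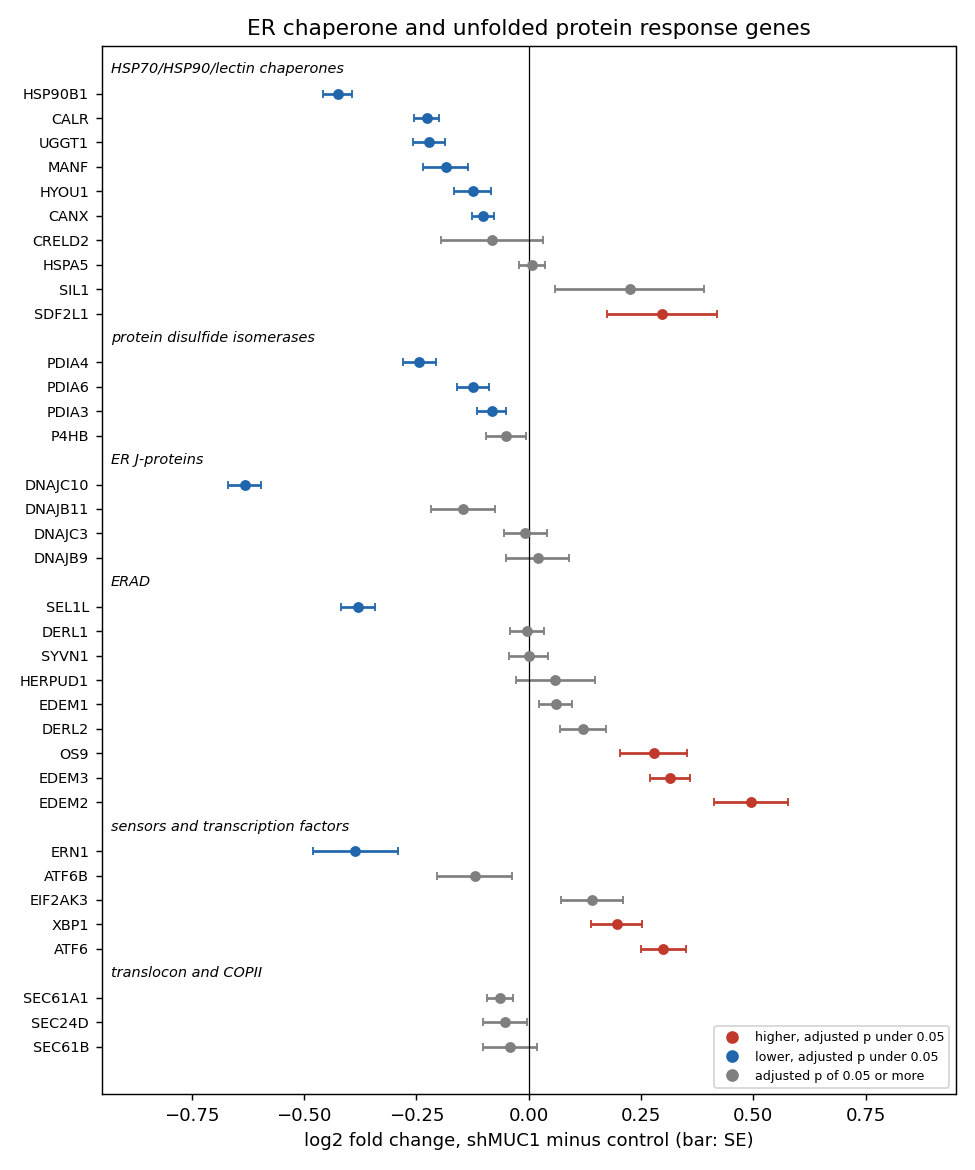
Log2 fold change (shMUC1 minus control) of the 35 tested genes, ordered within their roles, with bars of 1 SE. Red points rose and blue points fell at an edgeR adjusted p under 0.05, and grey points did not pass. Blue points lie mostly among chaperones and disulfide isomerases, and the highest value is EDEM2 at 0.50.

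Among the 10 chaperones and lectins, 6 fell (60%, beside 23.6% of all tested genes), 1 rose (10%, beside 25.2%) and 3 did not pass the test. HSPA5, the HSP70 of the ER lumen and the regulator that keeps the UPR sensors inactive, was at 634, 613 and 625 CPM in control and 625, 621 and 636 CPM in shMUC1 libraries. The groups overlapped. Its log2 fold change was 0.0072 (SE 0.0289, adjusted p = 0.86), with a 95% interval from -0.05 to 0.064. The HSP90 of the same compartment was lower. HSP90B1, which encodes GRP94, a chaperone of integrins and Toll-like receptors, was at 365, 372 and 372 CPM in control and 277, 270 and 278 CPM in shMUC1 libraries. No shMUC1 library came near the control range, and the log2 fold change was -0.43 (SE 0.0318, adjusted p = 5.7e-14). Its exons share 131 bases with MIR3652 on the same strand.

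CALR, CANX and UGGT1, which together run the glycoprotein folding cycle, all fell. CALR, the soluble lectin calreticulin, was at 914, 890 and 923 CPM in control and 761, 791 and 779 CPM in shMUC1 libraries, a log2 fold change of -0.23 (SE 0.0282, adjusted p = 1.53e-08). CANX, its membrane-bound relative calnexin and the most abundant member, went from 2220, 2277 and 2238 to 2101, 2106 and 2072 CPM. The step was small, at -0.10 on the log2 scale (SE 0.0246, adjusted p = 0.000779), but the groups did not overlap. UGGT1, the sensor that adds a glucose back to misfolded glycoproteins and so returns them to both lectins, went from 239, 242 and 239 to 215, 202 and 199 CPM. Its log2 fold change was -0.22 (SE 0.0354, adjusted p = 1.86e-06).

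Cofactors of HSPA5 went different ways. HYOU1, a large HSP70-like protein that exchanges the nucleotide of HSPA5, went from 116, 110 and 118 to 107, 105 and 104 CPM, a log2 fold change of -0.12 (SE 0.0416, adjusted p = 0.0122). This call was lost when control replicate 1 (adjusted p = 0.057) or shMUC1 replicate 3 (adjusted p = 0.0554) was left out. SIL1, an exchange factor with the same function, was at 4.28 ± 0.367 CPM in control and 4.96 ± 0.547 CPM in shMUC1 libraries (SD, n = 3 each), and did not pass (log2 fold change 0.22, SE 0.166, adjusted p = 0.276). MANF, a secreted ER protein that binds HSPA5, went from 70.0, 68.8 and 66.7 to 59.6, 59.3 and 62.1 CPM. It fell by 0.18 on the log2 scale (SE 0.0501, adjusted p = 0.00235). SDF2L1, which forms a complex with the cochaperone DNAJB11, was at 9.35, 9.69 and 7.40 CPM in control and 11, 11.4 and 9.89 CPM in shMUC1 libraries. This was the only chaperone of the class that rose (log2 fold change 0.30, SE 0.122, adjusted p = 0.0419), and the call did not hold in 6 of 15 alternatives, among them the fit without control replicate 3 (adjusted p = 0.294), without shMUC1 replicate 1 (0.106) and without shMUC1 replicate 2 (0.135). CRELD2, an ER protein with disulfide isomerase activity, was at 12.3 ± 1.96 and 11.7 ± 0.554 CPM (SD, n = 3 each), with overlapping groups and an adjusted p of 0.589.

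Of the 4 disulfide isomerases among the members, 3 fell (75%, beside 23.6% of all tested genes) and 1 did not pass. This does not hold for their relatives in a further list, which are named after their values were seen. PDIA5 (log2 fold change 0.23), TXNDC11 (0.31), TMX1 (0.10), ERP29 (0.23) and ERP44 (0.12) rose. TMX3 did not pass, and PDIA2 and TXNDC5 were not tested. PDIA4, also called ERp72, was at 183, 174 and 185 CPM in control and 152, 154 and 153 CPM in shMUC1 libraries, a log2 fold change of -0.24 (SE 0.0371, adjusted p = 8.73e-07). PDIA6, which also tunes the IRE1 sensor, went from 209, 200 and 213 to 190, 189 and 191 CPM, a log2 fold change of -0.12 (SE 0.0357, adjusted p = 0.00376). The shMUC1 libraries of both genes lay in a narrow band below all controls. PDIA3, the isomerase that works with calnexin and calreticulin, went from 307, 300 and 310 to 284, 285 and 298 CPM (log2 fold change -0.08, SE 0.0329, adjusted p = 0.0359). It lost its call in 5 alternatives, including the fits without control replicate 1 (adjusted p = 0.104), shMUC1 replicate 1 (0.167) and shMUC1 replicate 2 (0.121). P4HB, the founding isomerase and a subunit of collagen prolyl 4-hydroxylase, was at 127 ± 9.31 CPM in control and 122 ± 3.97 CPM in shMUC1 libraries (SD, n = 3 each), with overlapping groups (adjusted p = 0.375).

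The J-proteins, which bring substrates to HSPA5 and start its ATP cycle, included the member with the largest fall. DNAJC10, or ERdj5, is a reductase that opens disulfide bonds of chains bound for ERAD. It was at 279, 277 and 256 CPM in control and 173, 175 and 176 CPM in shMUC1 libraries, 35.5% lower on average (log2 fold change -0.63, SE 0.0365, adjusted p = 4.06e-17). Among all tested genes, 90.1% had a higher log2 fold change. The annotated exons of DNAJC10 share 338 bases with the pseudogene RPL31P15 on the same strand, and reads there cannot be assigned with certainty. The other 3 J-proteins did not pass: DNAJB11, which delivers unfolded chains, had a log2 fold change of -0.15 (SE 0.0719, adjusted p = 0.0917), DNAJB9, a repressor of IRE1, one of 0.02 (SE 0.0695, adjusted p = 0.839), and DNAJC3, an inhibitor of PERK, one of -0.0074 (SE 0.0472, adjusted p = 0.913). All 3 had overlapping groups. Exons of DNAJB11 share 451 bases with AC068631.2 on the same strand.

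Of the 9 tested ERAD genes, 3 rose (33.3%, near the 25.2% of all tested genes). A fall was called for 1 (11.1%, beside 23.6% of all tested genes), and 5 did not pass. EDEM2, a mannosidase-like protein that starts the trimming which marks a glycoprotein for disposal, was at 20.1, 18.6 and 20.6 CPM in control and 26.5, 26.6 and 30.9 CPM in shMUC1 libraries. This was the largest rise among members (log2 fold change 0.50, SE 0.082, adjusted p = 3.75e-06). EDEM3, which trims further mannoses, went from 83.8, 89.5 and 92.9 to 113, 112 and 106 CPM, a log2 fold change of 0.31 (SE 0.0448, adjusted p = 2.53e-07). OS9, the lectin that presents the trimmed glycan to the ubiquitin ligase complex, went from 25.4, 25.8 and 26.4 to 28.8, 33.7 and 31.7 CPM (log2 fold change 0.28, SE 0.0743, adjusted p = 0.00199). The groups did not overlap for any of these 3 genes. EDEM1, the remaining member of its family, was at 190 ± 3.42 CPM in control and 198 ± 6.04 CPM in shMUC1 libraries (SD, n = 3 each) and did not pass (log2 fold change 0.06, SE 0.0361, adjusted p = 0.174).

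SEL1L, the adaptor that joins OS9 to the ligase SYVN1, moved opposite to its lectin. It was at 172, 172 and 164 CPM in control and 133, 128 and 129 CPM in shMUC1 libraries, a log2 fold change of -0.38 (SE 0.0382, adjusted p = 1.2e-10). SYVN1 itself, the HRD1 ligase, was at 102 ± 2.17 and 102 ± 5.70 CPM (SD, n = 3 each; adjusted p = 0.996), with the caveat that 398 exon bases are shared with FAU on the same strand. HERPUD1, which organises the ligase complex, had a log2 fold change of 0.06 (SE 0.0875, adjusted p = 0.611). Of the derlins, which belong to the channel for exported chains, DERL1 was at 187 ± 8.31 and 187 ± 4.39 CPM (SD, n = 3 each; adjusted p = 0.953). DERL2 was higher in every shMUC1 library, at 64.2, 63.6 and 62.4 CPM against 61.1, 57.1 and 57.0 CPM in control, and stood just short of the threshold (log2 fold change 0.12, SE 0.0516, adjusted p = 0.0516). DERL3, a derlin of secretory cells, had 6, 4 and 2 counts in control and 6, 6 and 4 in shMUC1 libraries and was not tested.

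The sensors and transcription factors also moved in different directions. ERN1, the kinase and RNase IRE1 that splices XBP1 mRNA, was at 20.1, 19.8 and 19.5 CPM in control and 13.2, 16.3 and 16.1 CPM in shMUC1 libraries, a log2 fold change of -0.39 (SE 0.0942, adjusted p = 0.000796). XBP1, its substrate, was higher, at 52.6, 53.0 and 56.0 CPM against 49.9, 46.4 and 44.8 CPM in control (log2 fold change 0.20, SE 0.0575, adjusted p = 0.0047). Without control replicate 3 its adjusted p was 0.0501. Counts per gene do not separate spliced from unspliced XBP1, so the activity of the IRE1 branch could not be read from these values. ATF6, the membrane-tethered factor released by Golgi proteases, went from 60, 58.1 and 62.3 to 72.7, 76.0 and 73.3 CPM, a log2 fold change of 0.30 (SE 0.0498, adjusted p = 4e-06). ATF6B, its weaker relative, had a log2 fold change of -0.12 (SE 0.0831, adjusted p = 0.244) with overlapping groups. On the same strand ATF6B shares 71 exon bases with TNXB and 289 with AL662884.2. EIF2AK3, the kinase PERK, was higher in every shMUC1 library, at 31.4, 34.4 and 33.1 CPM against 30.4, 29.2 and 30.1 CPM, and did not pass the test (log2 fold change 0.14, SE 0.0691, adjusted p = 0.0907).

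None of the 3 genes of entry and exit passed. SEC61A1, the pore of the translocon through which new chains enter the ER, was at 515, 510 and 512 CPM in control and 494, 489 and 487 CPM in shMUC1 libraries. All shMUC1 libraries lay below the controls. The log2 fold change was -0.06 (SE 0.0294, adjusted p = 0.0736), and the gene passed in 6 of 15 alternatives. SEC61B, a small subunit of the same pore, was at 46.7 ± 2.08 and 45.2 ± 2.49 CPM (SD, n = 3 each; adjusted p = 0.595). SEC24D, a cargo-selecting subunit of the COPII coat, was at 64.9 ± 0.824 and 62.6 ± 1.25 CPM (SD, n = 3 each), lower in every shMUC1 library, with an adjusted p of 0.405.

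**Figure D2:**
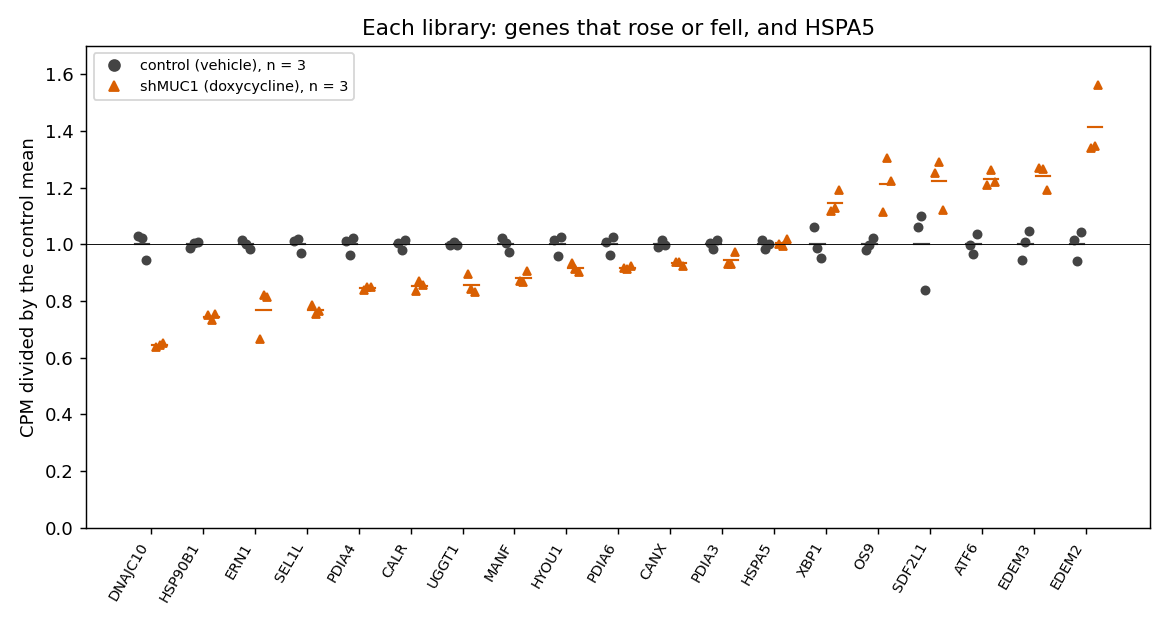
CPM of each library divided by the mean of the 3 control libraries, for the 12 members that fell, HSPA5, and the 6 that rose, with horizontal bars at group means. DNAJC10 lies between 0.638 and 0.652 in all shMUC1 libraries, HSPA5 between 0.995 and 1.02, and EDEM2 between 1.34 and 1.56.

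Counted by library, the groups did not overlap for 22 of the 35 tested members, 14 of them lower and 8 higher in shMUC1. Over all tested genes, 54.8% did not overlap in either direction (4109 lower and 4310 higher of 15355). The median log2 fold change of the members was -0.05, against 0.00058 over all tested genes. In DESeq2 both medians were -0.05 and -0.03, and with no low-count filter -0.04 and -0.02. In these fits the second median covered 24406 rows with a count, not the 15355 genes of the main test. Without control replicate 3 both medians were -0.03 and -0.01, the second over 15672 rows. The gap was narrower in each of these fits. In size, the median absolute log2 fold change of the members was 0.125, against 0.245 over all tested genes. Of the members, 6 (17.1%) exceeded 0.3 in size, against 42.3% of all tested genes. Level and precision differ between these sets. Of all tested genes, 12375 lay below the members' median control level of 80.7 CPM, with a median SE of 0.116 (0.0719 for members below it). At or above that level the median SE was 0.0390 for all tested genes and 0.0363 for members. Sizes of change were not compared at like level, so a smaller size is not read as particular to the members.

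As a share of raw counts, the members went from 0.755% ± 0.00634 in control to 0.685% ± 0.00142 in shMUC1 libraries (SD, n = 3 each). This does not give an amount of RNA. The CPM that follow are not this share, since they used TMM-scaled library sizes. Summed CPM over the 36 genes ran from 7472 to 7512 in control and from 6892 to 6932 in shMUC1 libraries, and dropped by 7.87% between means of 7499 ± 22.8 and 6908 ± 21.0 (SD, n = 3 each). CANX, CALR, DNAJC10 and HSP90B1 together made up 80.3% of this net drop. The smaller genes that rose added little: EDEM3, the largest gain, contributed 21.5 CPM, and EDEM2 8.21 CPM. A sum of CPM is led by long and abundant transcripts and is given as a description only.

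The direction of the calls differed with abundance. Of the 18 members at or above the members' median control level of 80.7 CPM, 10 fell and 1, EDEM3, rose. Of the 17 below it, 2 fell (MANF and ERN1) and 5 rose (EDEM2, OS9, SDF2L1, XBP1 and ATF6). Over all tested genes, calls split evenly at both levels, with 36.2% higher and 36.1% lower above this level and 22.5% higher and 20.5% lower below it. The median SE was 0.0363 for the more abundant members and 0.0719 for the others, so smaller changes could pass in the former. This division was made with the values known, and the difference between levels was not tested.

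**Figure D3:**
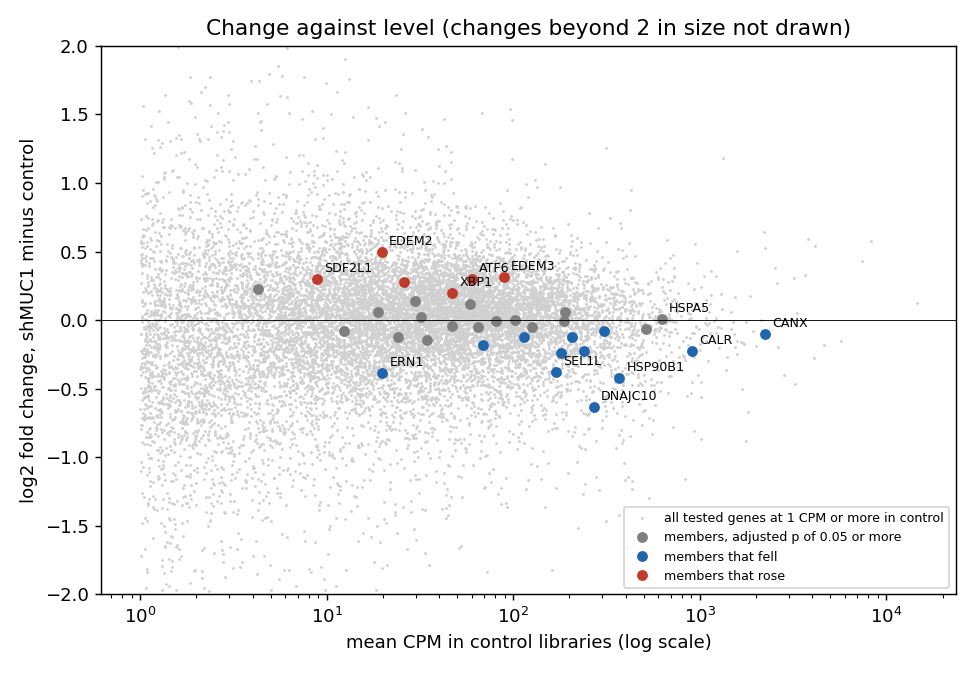
Log2 fold change (shMUC1 minus control) against the mean CPM in control libraries on a log axis, for all tested genes with at least 1 CPM in control (light grey) and for the members (red rose, blue fell, dark grey did not pass). The blue members lie to the right, at higher levels, than most of the red ones.

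Levels of different genes were compared per kilobase of annotated exon (CPM per kb, control means). CANX led with 360 and CALR followed with 335, then HSPA5 with 160 and SEC61A1 with 109. HSP90B1 at 78.7 and PDIA3 at 72.1 came next, and SIL1, at 1.07, was the lowest of the tested members. ERN1 at 1.82 stood well below the other sensors, ATF6 at 7.62 and EIF2AK3 at 5.50. In shMUC1 libraries CANX (336) and CALR (286) still stood above HSPA5 (161), while HSP90B1 (58.6) came to stand below PDIA3 (68.1). DNAJC10, with 21835 annotated exon bases, is at 12.4 CPM per kb in control on this scale, which depends on how much of that annotation the cells use.

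Members with and without the ER stress element were set side by side. The 10 members with ERSE or ERSE-II in the window had a median log2 fold change of -0.09, with 5 genes lower (HSP90B1, CALR, PDIA6, HYOU1 and CANX) and 2 higher (SDF2L1 and XBP1). The 22 members whose window held neither had a median of -0.02, with 6 lower and 4 higher. Over all tested genes, 23.6% were lower and 25.2% higher, and with so few members per set nothing is read from these counts. HSPA5, whose element is printed above, had a log2 fold change of 0.0072, CRELD2 one of -0.08 and HERPUD1 one of 0.06, and none of these passed. The difference between both sets of members was not tested.

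A word of the 3′ untranslated region (UTR), ATCAGTA, had been linked in an earlier look at these data to genes lower in shMUC1, and its presence in the members was listed for that reason. It is not independent evidence here. The word was in annotated 3′ UTRs of UGGT1, DNAJC3 and DNAJC10, 8.57% of the 35 members, against 14.4% of tested genes with an annotated 3′ UTR. Of the sites in the 2 members that fell, 3 are shown on GRCh38 with the word in capitals.
UGGT1, chr2:128191550-128191556, plus strand: aagatgggATCAGTAagattaaa
UGGT1, chr2:128194737-128194743, plus strand: agatcttaATCAGTAttttggta
DNAJC10, chr2:182780812-182780818, plus strand: tggtctacATCAGTAtggactcc
UGGT1 and DNAJC10 fell (-0.22 and -0.63 on the log2 scale) and DNAJC3 did not pass (-0.0074). Their longest annotated 3′ UTRs run to 6394, 17332 and 3959 bases, and whether these cells use the parts with the word was not tested. Over all tested genes with the word, the median log2 fold change was -0.11, with 789 lower and 394 higher. Of the other 10 members that fell, 5 had the shorter word TCAGTA and 5 had neither, HSP90B1, CALR and PDIA4 among the latter.

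The rest of the pathway was taken from 6 further lists, written with earlier results of these data known. Their counts stand beside 25.2% higher and 23.6% lower over all tested genes. Other ER folding and redox factors were balanced, with 10 of 26 tested genes higher and 10 lower and a median log2 fold change of 0.0025. HSPA13, an ER-associated HSP70-like protein, fell from 166 ± 6.06 to 96.5 ± 3.02 CPM (SD, n = 3 each; log2 fold change -0.79, adjusted p = 1.98e-18). CLGN, the calnexin relative calmegin, fell by 0.70 and FKBP11, a prolyl isomerase, by 0.68 on the log2 scale (adjusted p = 2.26e-05 and 0.000465). The largest rises, named after their values were seen, were FKBP14 (0.63), DNAJC1 (0.45) and SDF2 (0.42). Their adjusted p were 1.15e-12, 7.7e-05 and 0.000382. Without shMUC1 replicate 2, 6 genes of this list were higher rather than 10.

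Other ERAD factors were likewise split, with 9 of 27 higher, 9 lower and a median log2 fold change of -0.01. NPLOC4, a cofactor of the VCP segregase that pulls chains out of the membrane, fell from 144 ± 1.65 to 74.4 ± 1.15 CPM (SD, n = 3 each; log2 fold change -0.95, adjusted p = 7.97e-21). UBXN8, which tethers VCP to the ER, fell by 1.01 and TMEM129, an ER ubiquitin ligase, rose by 0.69 on the log2 scale (adjusted p = 3.17e-08 and 7.76e-08).

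Of 31 genes of the translocon, signal recognition, signal peptidase and oligosaccharyltransferase, 12 rose and 8 fell, with a median log2 fold change of 0.03. SRP9, a subunit of the signal recognition particle, fell by 1.12, SSR1, a translocon-associated protein, fell by 0.73, and SEC11C, a signal peptidase subunit, rose by 0.58 on the log2 scale (adjusted p = 8.16e-24, 4.62e-21 and 0.00216). Of 21 genes of COPII and ER export, 11 fell and 4 rose, with a median of -0.09. SEC23IP, a partner of the COPII coat, fell from 125 ± 7.38 to 60.3 ± 2.60 CPM (SD, n = 3 each; log2 fold change -1.05, adjusted p = 4.98e-20). The paralogous coat subunits SEC23A and SEC23B went opposite ways, at -0.55 and 0.51 (adjusted p = 1.86e-16 and 1.03e-13). Of the receptors that return KDEL-tagged chaperones to the ER, KDELR3 fell by 0.27 (adjusted p = 0.00236), and KDELR2 had a log2 fold change of -0.01 (adjusted p = 0.725). KDELR1, added after its values were seen, fell by 0.13 (adjusted p = 0.00635).

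Of 12 tested genes of sensor processing and related factors, 6 fell and 4 rose, with a median log2 fold change of -0.16. MBTPS2, one of the Golgi proteases that release ATF6, fell by 0.43 (adjusted p = 5.36e-11), while ATF6 itself was higher. Another, MBTPS1, added after its values were seen, fell by 0.32 (adjusted p = 1.67e-09). CREB3L1, an ER-tethered factor cleaved by the same proteases, fell from 302 ± 11.6 to 199 ± 4.95 CPM (SD, n = 3 each; log2 fold change -0.60, adjusted p = 7.67e-17). MAP3K5, the kinase ASK1 that acts after IRE1, rose by 0.45 on the log2 scale (adjusted p = 0.00394).

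Genes of the PERK-ATF4-CHOP branch were mostly higher, with 9 of 14 tested genes up (64.3%, beside 25.2% of all tested genes), 2 down (14.3%, beside 23.6%) and a median log2 fold change of 0.30. CHAC1, a glutathione-degrading target of ATF4, rose from 3.23 ± 0.393 to 7.34 ± 0.889 CPM (SD, n = 3 each; log2 fold change 1.19, adjusted p = 9.83e-08), and was the only gene of this list past 2-fold. ATF3 rose by 0.79 and TRIB3, a pseudokinase target of CHOP, by 0.66 on the log2 scale (adjusted p = 1.59e-08 and 2.59e-10). The other risers, named after their values were seen, were SESN2 (0.60), PPP1R15B (0.33), NCK1 (0.31), CEBPG (0.30), EIF2B5 (0.30) and EIF2S1 (0.12). Whether the branch was more active was not tested. ATF4, DDIT3, PPP1R15A and ATF5 were among the 5 tested genes that did not rise. The other, CEBPB, added after its values were seen, had a log2 fold change of 0.11 (adjusted p = 0.0544). ATF4 was at 78.8 ± 5.89 and 76.7 ± 6.33 CPM (SD, n = 3 each; adjusted p = 0.659), DDIT3, which encodes CHOP, was low at 2.02 ± 0.374 and 1.54 ± 0.476 CPM (SD, n = 3 each; adjusted p = 0.253), PPP1R15A, which restores translation, fell by 0.25 (adjusted p = 6.21e-05), and ATF5 fell by 0.97 on the log2 scale (adjusted p = 2.58e-11). ATF4 is regulated largely through translation, which RNA counts do not show.

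**Figure D4:**
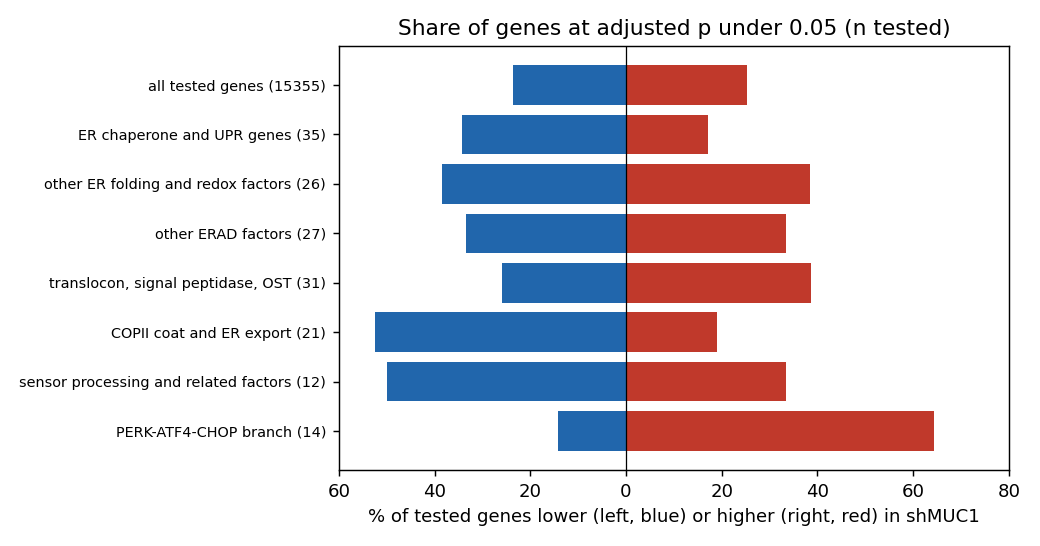
Share of tested genes that fell (blue, to the left) or rose (red, to the right) at an edgeR adjusted p under 0.05, for all tested genes, the 35 tested members and 6 further ER and UPR lists, with the number tested in brackets. The members fell more often than they rose, at 34.3% against 17.1%, and the PERK-ATF4-CHOP list shows the reverse, at 14.3% against 64.3%.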

How the data were processed

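RNA-seq was measured in 6 libraries of MDA-MB-436 cells, 3 per group, made from total RNA of triplicate cultures with a stranded mRNA kit. Raw counts, 1 row per gene symbol and 1 column per library, were deposited by the authors. The submitters' processing notes name CASAVA 1.8.2, STAR 2.7.9a, featureCounts, DESeq2 1.24.0 and GRCh38.p7. The strand setting of the counting and the annotation release are not given in the sources used here, and by GENCODE 29 exons of 19 members overlap a gene on the opposite strand and those of 5 one on the same strand. Small counts were mostly even (69.6% ± 0.706 in control and 70.2% ± 0.319 in shMUC1 libraries for values from 1 to 20, SD, n = 3 each), and halved counts were tried in case both reads of a pair were counted.

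The main test was edgeR's quasi-likelihood F test (edgeR 4.0.16, R 4.3.3), two-sided, after filterByExpr and TMM scaling, with no covariate and with Benjamini-Hochberg adjustment over 15355 genes. CPM used TMM-scaled library sizes, and each SE was the absolute log2 fold change divided by the square root of F. Whether cultures were independent is not stated beyond the word triplicate, and p-values measure the spread between these libraries. Pairs of libraries within a group differed by a chi-square per degree of freedom of 2.79 to 5.55. Replicate numbers did not pair the libraries (correlations of deviations 0.0049, -0.032 and -0.038). A count of 3, the limit that a count of 0 allows, equals 0.109 to 0.161 CPM, for counting error only, since there are no molecular identifiers. Alternatives were DESeq2 1.42.0, limma-voom (limma 3.58.1), other scaling and filters, a replicate block, halved counts, equal depth and each library left out.

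The members and lists were chosen with earlier results of these data known. All members, MUC1, ATF4, DDIT3, PPP1R15A, TRIB3, KDELR2 and KDELR3 are named, with up to 3 called genes per further list by size of change among those with a mean of at least 100 counts. Promoters came from RefSeq on GRCh38.p14 (32 of 36 members matched) and exon lengths and 3′ UTRs from GENCODE 29. Scripts were tested on simulated data. A further 3′ UTR site is not reported here.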

Additional observations from a re-analysis of the deposited data

How the results depend on the processing

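Across 15 alternatives, 6 members called higher became 4 to 7 and 12 called lower became 11 to 14, no member passed 2-fold, and MUC1 kept its direction and call. Of 525 member values, 474 kept their direction and side of the threshold, 14 lost the call, 11 gained it and 26 changed sign, all of the last in genes not called. With 20 of 35 members nothing changed. The median log2 fold change of members was -0.0724 with library totals only and -0.0727 where genes under a mean count of 50 were dropped, beside medians over all tested genes of -0.0217 and -0.0032. It ran from -0.0655 without control replicate 2 to -0.0304 without control replicate 3, and was -0.0323 without shMUC1 replicate 3. The replicate block gave 6 members higher, 12 lower and a median of -0.05, and the replicate numbers do not pair the libraries, so no pairing is claimed.

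Sign changes were all near 0. With library totals only and with the higher count minimum, HSPA5 was at -0.0146 and -0.0153 and DNAJB9 at -0.0022 and -0.0030, and DNAJB9 was at -0.0181 at equal depth. With no low-count filter DNAJC3, SYVN1 and DERL1 were at 0.0026, 0.0094 and 0.0066, and SYVN1 was at 0.00028 in DESeq2 and 0.0015 in limma-voom. With a library left out, values ran from -0.0044 to 0.0209 for HSPA5, -0.0339 to 0.0621 for DNAJB9, -0.0414 to 0.0290 for DNAJC3, -0.0450 to 0.0334 for SYVN1, -0.0498 to 0.0273 for DERL1, -0.196 to 0.0242 for CRELD2, -0.0107 to 0.0919 for HERPUD1 and -0.0739 to 0.0014 for SEC61B. Calls were lost for SDF2L1 in 6 alternatives, PDIA3 in 5, HYOU1 in 2 and XBP1 in 1, and gained for SEC61A1 in 6, DERL2 in 3 and DNAJB11 in 2. The cause was not tested. With 3 libraries a group and SE of 0.0246 to 0.166 on the log2 scale, the members called at a change of under 10% were CANX, PDIA3, PDIA6 and HYOU1, each at over 100 CPM.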
